A study of Sus scrofa with 9 samples.

Results

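The genes described here are the IgG heavy chain gene LOC396781, the plasma cell genes JCHAIN, MZB1 and POU2AF1, and the new genes Sus_scrofa_newGene_14801, Sus_scrofa_newGene_14800, Sus_scrofa_newGene_14559 and Sus_scrofa_newGene_14558. They are 8 of the 25918 genes in the expression table, 4 of them named in the annotation and 4 of them new genes without a name or a position. They were selected on their FPKM, for high values in libraries of the high-iron group, so the differences between that group and the other groups are given as a description, with no test. The question asked of them was whether they moved together across the libraries.

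Liver RNA of 9 Wujin pigs, a pig breed of southwestern China, was sequenced, with 1 animal per library and 3 libraries per diet group. The feed held 0 mg/kg of added iron in the low-iron group, 100 mg/kg in the control group and 200 mg/kg in the high-iron group. Feeding lasted 30 days after 5 days of prefeeding, in piglets aged 35 days at the start, and all groups shared the breed and the basal diet. Libraries are named by their group and animal number, which are 2, 3 and 7 in the low-iron group, 4, 5 and 6 in the control group and 2, 7 and 8 in the high-iron group. Values are FPKM, fragments mapped to a gene, scaled for transcript length and for the fragments mapped in that library. The FPKM of a library summed to between 416922 and 456420 over all genes, and between 16235 and 17817 genes were above 0. The Y-linked gene EIF1AY was above 0 in 2 low-iron, 2 control and 1 high-iron libraries, the last being high-iron replicate 7, so both sexes were present. The 8 hepatocyte rows tested, among them ALB, summed to between 69024 and 92468 FPKM, as the tissue label states.

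Antibodies are built from heavy and light chains, and IgG is the main antibody of blood. B cells join variable, joining and constant segments of the heavy chain locus by DNA rearrangement, and plasma cells, their secreting descendants, make antibody RNA in very large amounts. JCHAIN links IgM or IgA units into polymers, MZB1 is a chaperone of the endoplasmic reticulum that assists antibody assembly, and POU2AF1 is the B cell coactivator that works with octamer-binding factors on immunoglobulin promoters. The liver parenchyma makes no antibody, so such RNA in whole liver is read as a sign of B lineage cells in the tissue or its blood. In bulk tissue, a change in the number of such cells and a change in RNA per cell cannot be told apart.

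LOC396781 lies on an unplaced scaffold of Sscrofa11.1, NW_018084979.1:3676148-3841291, on the minus strand. Its reference transcript is placed on the genome in 16 pieces that add up to 1434 bases, 7 of them under 10 bases long. The last 4 pieces, 933 bases in all, lie in the constant part. The piece before them, of 59 bases at 3699888 to 3699946, directly adjoins another copy of the 235-base piece at 3699653 to 3699887, so the constant part of the transcript was placed in more than 1 copy of the locus. The scaffold holds 9 genes of the constant region biotype, of which 0 are in the expression table. Among them LOC102165485, at 3580107 to 3774450 on the same strand, spans the last 4 pieces of LOC396781. Some of the others also lie within the span of LOC396781. The pieces of 235, 327 and 335 bases each have 5 other copies on the scaffold, at up to 99.1%, 95.0% and 94.3% identity. The hinge, the short flexible stretch between the antigen-binding arms and the tail of an antibody, is a 36-base exon, and it is shown with its nearest copies because it is the part by which IgG subclasses commonly differ. Capitals mark bases that differ from the exon of LOC396781, and all are read 5′ to 3′ on the minus strand of NW_018084979.1.
LOC396781 hinge exon, 3677028 to 3677063: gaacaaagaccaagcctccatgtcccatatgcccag
copy at 3658935 to 3658970: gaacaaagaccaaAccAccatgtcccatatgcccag
copy at 3699292 to 3699327: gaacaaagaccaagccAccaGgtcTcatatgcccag
The copies differ from it at 2 and 3 of 36 bases, which is 94.4% and 91.7% identity. Counted from 1 at the 5′ end of the exon, the first copy has the changes G14A and T17A, and the second has T17A, T21G and C25T. Reads from other IgG genes could therefore have been assigned to LOC396781, and its values are best read as those of IgG heavy chain RNA without a subclass.

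The octamer, the site bound by the factors that POU2AF1 assists, was looked for as ATGCAAAT or, on the other strand, ATTTGCAT, in the 250 bases before each gene's annotated start. It was found in 269 of 20653 such windows, or 1.30%. LOC396781 had it 119 bases before its start. LOC100152327, annotated as immunoglobulin lambda-like polypeptide 5, at chr14:48800248-49001525 on the plus strand, had it 74 bases before its start. These stretches are shown because they are the matches among the 5 windows looked at by name, those of LOC396781, LOC100152327, JCHAIN, MZB1 and POU2AF1, with the octamer in capitals and both read 5′ to 3′ along the gene.
LOC396781, NW_018084979.1:3841372-3841461, minus strand, 170 to 81 bases before the start: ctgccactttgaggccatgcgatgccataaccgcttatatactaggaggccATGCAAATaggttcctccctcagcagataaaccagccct
LOC100152327, chr14:48800128-48800217, plus strand, 120 to 31 bases before the start: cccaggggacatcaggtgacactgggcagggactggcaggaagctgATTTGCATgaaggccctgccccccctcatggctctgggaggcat
The windows of JCHAIN (chr8:67439405-67448628, minus strand), MZB1 (chr2:141277541-141279652, minus strand) and POU2AF1 (chr9:39121422-39144636, minus strand) did not hold these letters. A match of letters is a description and shows no binding.

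LOC396781 was high in all 3 high-iron livers. The libraries of low-iron replicates 2, 3 and 7 held 6.58, 6.57 and 8.11 FPKM, and those of control replicates 4, 5 and 6 held 3.75, 4.52 and 5.30 FPKM. In high-iron replicates 2, 7 and 8 it was 26.7, 18.5 and 36.4 FPKM. The lowest high-iron library lay above every library of the other groups, and the low-iron libraries also lay above the controls. The group means were 7.09 ± 0.889, 4.52 ± 0.772 and 27.2 ± 8.98 FPKM (SD, n = 3 each) for low-iron, control and high-iron livers. The high-iron mean was 6.02 times the control mean, and the log2 difference on log2(FPKM + 0.1) was 2.52 with an SE of 0.25 against the controls and 1.88 with an SE of 0.25 against the low-iron group.

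JCHAIN, the polymer-linking chain, did not show the same separation. Its level was 10.8, 4.26 and 9.24 FPKM in the low-iron libraries, 19.1, 9.31 and 10.9 FPKM in the controls and 17.3, 12.1 and 22.6 FPKM in the high-iron libraries. Control replicate 4 was above 2 of the 3 high-iron libraries, so these groups overlapped, while every high-iron library was above every low-iron library. High-iron minus control was 0.43 on the log2 scale and high-iron minus low-iron was 1.15, each with an SE of 0.38. The latter value was 0.75 without low-iron replicate 3, the lowest library, and so under 2-fold.

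MZB1, the antibody-folding chaperone, was close to the filter on low values, a mean of 0.5 FPKM over the 9 libraries. It was 0.712, 0 and 1.25 FPKM in the low-iron libraries, 0.580, 0.326 and 0.719 FPKM in the controls and 0.757, 0.923 and 2.82 FPKM in the high-iron libraries. Only high-iron replicate 8 stood well above the rest, and low-iron replicate 3 was listed at 0. An antisense long noncoding gene overlaps MZB1 in the annotation and the library kit named in the labels does not mark strand, so the reads of both cannot be told apart.

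POU2AF1, the octamer coactivator, did not rise with the IgG heavy chain. It was 1.62, 1.57 and 1.08 FPKM in the low-iron libraries, 2.11, 1.49 and 2.01 FPKM in the controls and 0.732, 1.03 and 2.02 FPKM in the high-iron libraries. The lowest values of all 9 livers were those of high-iron replicates 2 and 7, which had 26.7 and 18.5 FPKM of LOC396781. High-iron minus control was -0.63 on the log2 scale, with an SE of 0.36.

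The new genes were far more abundant and followed another pattern. Sus_scrofa_newGene_14801 was 139, 202 and 324 FPKM in the low-iron libraries, 1153, 567 and 545 FPKM in the controls and 7887, 754 and 1608 FPKM in the high-iron libraries. High-iron replicate 2 was 4.90 times the next highest library, high-iron replicate 7 lay below control replicate 4, and all low-iron libraries lay below all controls. Sus_scrofa_newGene_14800 was 44.9, 71.3 and 101 FPKM in the low-iron libraries, 370, 290 and 156 FPKM in the controls and 2417, 178 and 672 FPKM in the high-iron libraries. For it as well, high-iron replicate 7 fell within the range of the controls, and the low-iron libraries were the lowest 3 of the 9.

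Sus_scrofa_newGene_14559 was 136, 190 and 186 FPKM in the low-iron libraries, 996, 522 and 107 FPKM in the controls and 5849, 612 and 1480 FPKM in the high-iron libraries. Sus_scrofa_newGene_14558 was 64.6, 105 and 105.7 FPKM in the low-iron libraries, 612, 382 and 66.6 FPKM in the controls and 4800, 385 and 887 FPKM in the high-iron libraries. In this pair, control replicate 6 was as low as the low-iron libraries, and high-iron replicate 2 was again the highest, at 3.95 and 5.41 times the next library. Over the 9 libraries the highest value of each new gene was between 53.9 and 74.3 times its lowest, while LOC396781 ranged from 3.75 to 36.4 FPKM. Together the new genes made up 4.99% of the summed FPKM of high-iron replicate 2, 1.08% of that of high-iron replicate 8 and between 0.0868% and 0.736% of that of the other 7 libraries. They ranked 2, 5, 3 and 4 by mean FPKM among the 5258 new genes of the table, in the order in which they are named above.

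**Figure D1:**
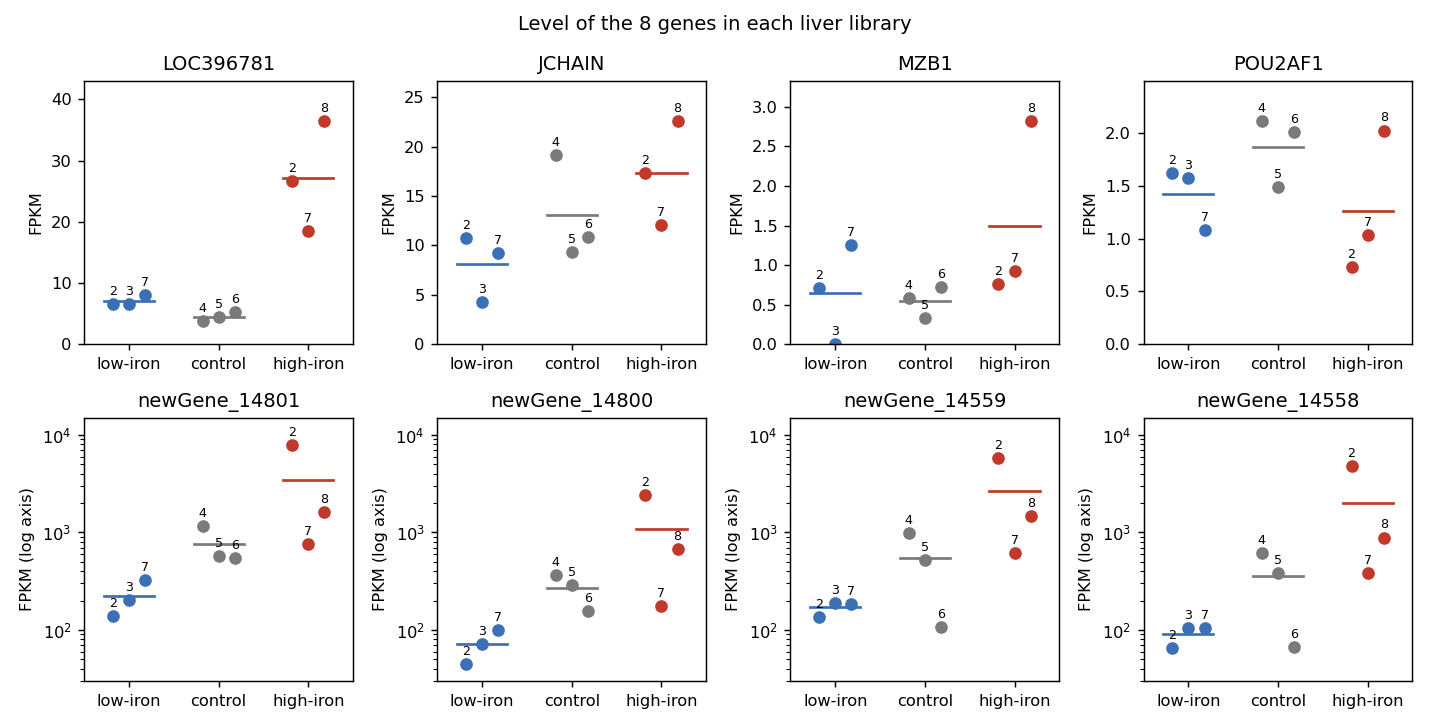
FPKM of the 8 genes in each library, by diet group; points are libraries with their animal number, lines are arithmetic group means (n = 3), and the new genes in the lower row are on a log axis. LOC396781 is separate in the high-iron group, with libraries between 18.5 and 36.4 FPKM, whereas the high-iron means of the new genes rest on replicate 2, which reaches 7887 FPKM for Sus_scrofa_newGene_14801.

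A gene was called different where its fold change was at least 2 and its unadjusted p from limma was under 0.05, which are the thresholds of the study. All 8 genes passed the filter on low values. For high-iron against control livers 4 of the 8 met these thresholds, LOC396781 and 3 new genes, all in the higher direction, where 1.27% of 12584 tested genes did and 1.57% did in either direction. For high-iron against low-iron livers 6 of the 8 did, the 4 new genes, LOC396781 and JCHAIN, all higher, where 1.01% of all tested genes did and 1.54% did in either direction. Nothing is read from these counts, since the genes were picked for that difference. Groups that do not overlap, with all high-iron libraries above all controls, were found for LOC396781 and MZB1 alone among the 8, where 9.14% of all tested genes were of this kind. Of the 8, 6 lay wholly above the low-iron libraries, where 8.11% of all tested genes did.

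The log2 differences of high-iron from control livers were 1.58, 1.37, 2.19 and 2.24 for Sus_scrofa_newGene_14801, Sus_scrofa_newGene_14800, Sus_scrofa_newGene_14559 and Sus_scrofa_newGene_14558, with SEs of 0.71, 0.75, 0.85 and 0.92. The SE of LOC396781 was 0.25 on the same scale. Without high-iron replicate 2 these differences were 0.63, 0.43, 1.32 and 1.23, while that of LOC396781 was 2.52 with it and 2.51 without it. The ratio of group medians, an alternative added after the data were seen, was 5.90 for LOC396781 and between 2.31 and 2.84 for the new genes.

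**Figure D2:**
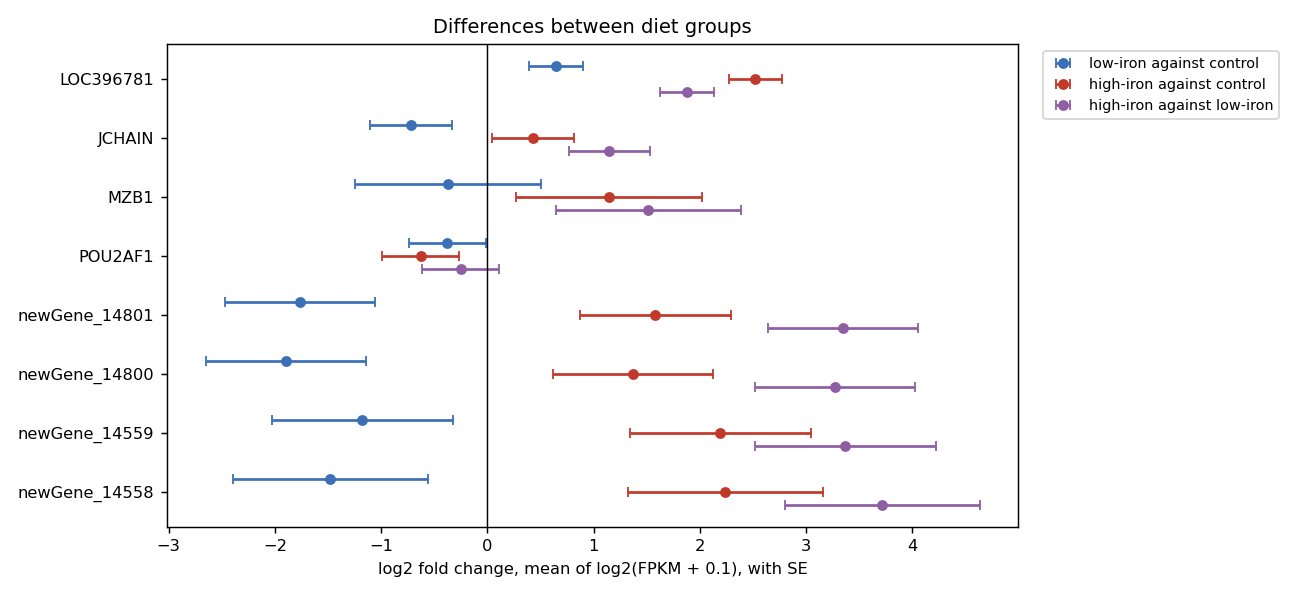
Log2 fold changes of the 8 genes in the 3 comparisons, from means of log2(FPKM + 0.1); bars are standard errors from the limma fit of 9 libraries. LOC396781 has the narrowest bars, with an SE of 0.25, and lies above 0 in all 3 comparisons, while the new genes lie below 0 for low-iron against control and above 0 for high-iron against control.

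The rule that picked the genes, high values in high-iron libraries, does not name the comparison of low-iron with control livers, so this was tested. Earlier results of these data were known when the genes were chosen, so its p-values may not be independent of the choice. LOC396781 was higher in the low-iron group by 0.64 on the log2 scale with an SE of 0.25, in 3 of 3 libraries, and Sus_scrofa_newGene_14801 and Sus_scrofa_newGene_14800 were lower by -1.76 and -1.90 with SEs of 0.71 and 0.75. The exact two-sided permutation test of the log2 values gave p = 0.1 for each of these 3 genes, which is the smallest p that 3 against 3 libraries allow. In the limma fit their unadjusted p-values were 0.0275, 0.0309 and 0.0293, and the adjusted p was 0.9998 for each. By the thresholds on fold change and unadjusted p, both new genes were called lower and LOC396781 was not called, since its difference was under 2-fold, so that 2 of the 8 were called, both lower, where 0.882% of all tested genes were called and 0.286% were called lower. Neither new gene was called without control replicate 4, low-iron replicate 2 or low-iron replicate 3, and Sus_scrofa_newGene_14800 was not called without control replicate 5. After adjustment 0 of 12584 genes passed in this comparison by limma, with 463, or 3.68%, at an unadjusted p under 0.05.

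The other 5 genes overlapped between the low-iron and control groups. JCHAIN differed by -0.72 with an SE of 0.38, with p = 0.2 by the exact permutation test. The values were -0.37 for MZB1 and -0.38 for POU2AF1, with p = 0.9 and p = 0.3 by the same exact test. They were -1.18 for Sus_scrofa_newGene_14559 and -1.48 for Sus_scrofa_newGene_14558, with exact p = 0.4 and p = 0.3, and the adjusted p from limma was 0.9998 for all 5. LOC396781 and the new genes thus had opposite signs in this comparison, in which 3 of the 8 genes did not overlap, where 8.34% of all tested genes did not.

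Correlations over the 9 libraries separated the genes in the same way. They are given as a description, since the libraries share the diet groups for which the genes were picked. The 6 pairs of new genes had a Pearson's r of 0.92 to 1.00 on log2(FPKM + 0.1), and 0.83 to 0.99 without high-iron replicate 2. With the mean of each diet group subtracted, they still ranged from 0.82 to 0.99. LOC396781 had an r of 0.56 to 0.63 with the 4 new genes, which became 0.35 to 0.46 without high-iron replicate 2 and -0.02 to 0.37 with group means subtracted. In a ranking of all other 12583 tested genes by their r with LOC396781, the new genes stood at places 1171, 1402, 940 and 1072. The IgG heavy chain and the new genes therefore did not vary closely together, although all were high in some high-iron libraries.

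The named genes went together only in part. JCHAIN and MZB1 had an r of 0.80 over all libraries, of 0.82 without high-iron replicate 2 and of 0.78 with group means subtracted, but a Spearman's rho of 0.47. This r rested on low-iron replicate 3, where JCHAIN was lowest and MZB1 was listed at 0, and was 0.49 without it. Leaving out a library and subtracting group means here were alternatives added after the data were seen. LOC396781 had an r of 0.47 with JCHAIN, 0.54 with MZB1 and -0.45 with POU2AF1, at places 2205, 1544 and 11836 of the ranking, and its r with MZB1 was 0.72 without low-iron replicate 3. Spearman's rho of these 3 pairs over all libraries was 0.32, 0.78 and -0.42. With group means subtracted, their r was 0.28, 0.47 and 0.32, so the sign for POU2AF1 changed. Without high-iron replicate 2 the r of LOC396781 with POU2AF1 was -0.18. JCHAIN had an r of 0.64 to 0.71 with the new genes, higher than that of LOC396781 with each of them. With group means subtracted, that of JCHAIN was 0.24 to 0.31. For Sus_scrofa_newGene_14800 it was then 0.28, below the 0.37 of LOC396781.

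**Figure D3:**
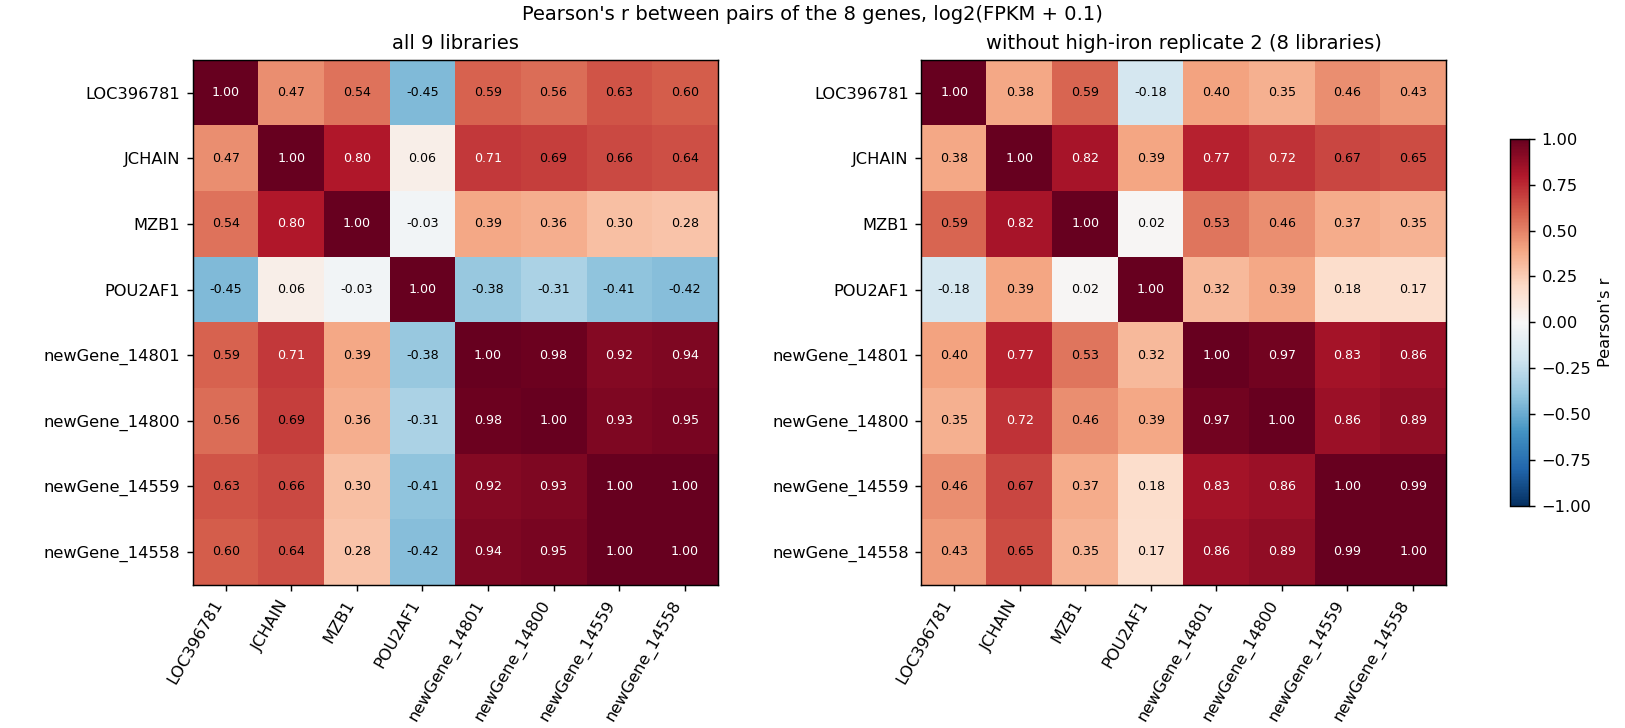
Pearson's r between each pair of the 8 genes on log2(FPKM + 0.1), over all 9 libraries on the left and without high-iron replicate 2 on the right. The 4 new genes form 1 block, at 0.83 or above in both panels, and LOC396781 reaches at most 0.63 with any of the other 7 genes in these panels.

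The proportions of the new genes to each other varied far less than their levels, apart from 1 library. The ratio of Sus_scrofa_newGene_14801 to Sus_scrofa_newGene_14800 lay between 1.95 and 4.24 in the 9 libraries, with a median of 3.12. That of Sus_scrofa_newGene_14559 to Sus_scrofa_newGene_14558 lay between 1.22 and 2.10, with a median of 1.63. Across pairs, the ratio of Sus_scrofa_newGene_14801 to Sus_scrofa_newGene_14559 lay between 1.03 and 1.74 in 8 libraries and was 5.10 in control replicate 6. The 5 other new genes in the table whose numbers lie within 5 of these were at most 0.902 FPKM in any library, and 2 of them, Sus_scrofa_newGene_14561 and Sus_scrofa_newGene_14799, were listed at 0 throughout. Sus_scrofa_newGene_14797 had a mean of 0.612 FPKM, and Sus_scrofa_newGene_14795 and Sus_scrofa_newGene_14798 had 0.131 and 0.0797 FPKM, all far below the 4 genes described.

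The annotated gene closest in pattern to 3 of the new genes, and next closest to the other, was LOC102158401. Its r was 0.97, 0.98, 0.97 and 0.97 with Sus_scrofa_newGene_14801, Sus_scrofa_newGene_14800, Sus_scrofa_newGene_14559 and Sus_scrofa_newGene_14558, over 9 libraries. The annotation predicts a collagen alpha-1(I) chain-like protein there, at NW_018085108.1:2195-8965 on the plus strand. LOC110258600, a predicted basic salivary proline-rich protein 2-like gene at NW_018085108.1:40013-45742 on the minus strand, had an r of 0.97 with both Sus_scrofa_newGene_14559 and Sus_scrofa_newGene_14558. This unplaced scaffold of 51932 bases also carries the annotated 18S ribosomal RNA gene RN18S at 42905 to 45206 and the 5.8S gene RN5-8S at 46571 to 46726, both on the plus strand, so LOC110258600 overlaps RN18S on the opposite strand.

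The 2302-base sequence of RN18S, aligned with BLASTN, matched the same scaffold again at 5813 to 8115, inside LOC102158401, at 99.8% identity. It also matched another unplaced scaffold at NW_018084912.1:6521-8821 at 99.7% identity, inside LOC110258214, a predicted gene at 3596 to 10725 that was looked at after its values were seen. In each case the 18S sequence ran against the strand of the predicted gene, and it covered 28.7% of the exon bases of LOC110258600, 15.3% of those of LOC102158401 and 21.97% of those of LOC110258214. A coding exon of 83 bases is shown because it lies within the 18S match and is the same in all 3 genes, with 0 differences. It is read 5′ to 3′ along the predicted gene, so opposite to 18S RNA, at NW_018085108.1:43536-43618 on the minus strand in LOC110258600, at NW_018085108.1:7401-7483 on the plus strand in LOC102158401 and at NW_018084912.1:7151-7233 on the minus strand in LOC110258214.
exon shared by LOC110258600, LOC102158401 and LOC110258214: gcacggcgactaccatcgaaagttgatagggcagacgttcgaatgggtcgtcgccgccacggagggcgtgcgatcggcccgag
The kit does not mark strand, so within the 18S matches reads of 18S RNA and of these predicted genes cannot be told apart. The rest of their exon bases lies outside these matches.

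The levels of these rows ran beside the new genes, for some pairs less closely than for others. LOC110258600 was 165, 248 and 179 FPKM in the low-iron libraries, 621, 399 and 151 FPKM in the controls and 1982, 394 and 1423 FPKM in the high-iron libraries. LOC102158401 was 48.6, 83.5 and 66.1 FPKM, then 241, 154 and 94.4 FPKM, then 1342, 159 and 424 FPKM in the same order. LOC110258214 was 22.4, 37.9 and 16.02 FPKM, then 107, 55.8 and 6.88 FPKM, then 252, 48.4 and 209 FPKM. All 3 were highest in high-iron replicate 2, then in high-iron replicate 8 and control replicate 4, the order also seen in the 4 new genes. Without high-iron replicate 2 the r of LOC102158401 with the new genes was 0.93 to 0.96, and its r with LOC396781 was 0.47. That of LOC110258600 with the new genes was then 0.82 to 0.96. LOC110258214 had an r of 0.74 and 0.79 with Sus_scrofa_newGene_14801 and Sus_scrofa_newGene_14800 over all libraries, and 0.62 and 0.69 without high-iron replicate 2. With Sus_scrofa_newGene_14559 and Sus_scrofa_newGene_14558 its r over all libraries was 0.93 and 0.91. The sequence and position of the new genes are not given by the table, and the part of ribosomal RNA in their values was not tested.

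**Figure D4:**
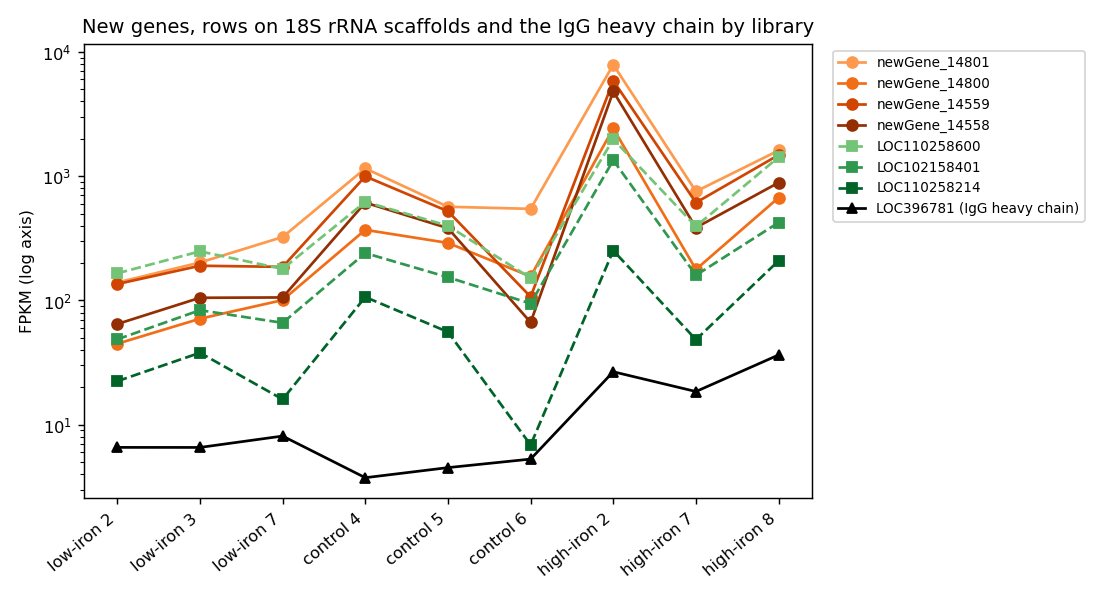
FPKM on a log axis in each of the 9 libraries for the 4 new genes (circles), 3 predicted genes that overlap 18S ribosomal RNA sequence (squares) and LOC396781 (triangles). The new genes and the predicted genes share peaks in control replicate 4 and high-iron replicates 2 and 8. They part in control replicate 6, where Sus_scrofa_newGene_14801 is 5.10 times Sus_scrofa_newGene_14559. LOC396781 is low in all controls, between 3.75 and 5.30 FPKM.

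Other genes near the new genes in pattern were SLA-DMB, which helps to load peptides on MHC class II, with an r of 0.95 and 0.93 to Sus_scrofa_newGene_14801 and Sus_scrofa_newGene_14800, and MARCH1, a ubiquitin ligase that removes MHC class II from the surface, with an r of 0.93 to Sus_scrofa_newGene_14800. SLA-DMB was 27.1 FPKM in high-iron replicate 2 and between 9.75 and 17.97 FPKM in the other libraries. Sus_scrofa_newGene_4632 and Sus_scrofa_newGene_3430 had an r of 0.92 to Sus_scrofa_newGene_14801 and 0.95 to Sus_scrofa_newGene_14559, and ENTPD1, which breaks down extracellular ATP, had 0.94 to Sus_scrofa_newGene_14558. These genes moved over a far smaller range than the new genes.

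Of the 10 genes most like the IgG heavy chain, 9 are annotated and none of these is described as an immunoglobulin chain, and the other is a new gene. Of all tested genes, ABRACL, a small actin-related protein, had the highest r with LOC396781, 0.96 over 9 libraries. It was 4.10, 2.14 and 3.62 FPKM in the high-iron libraries and between 0.602 and 1.76 FPKM in the others. Next came LOC100624077, annotated as an endogenous retrovirus envelope protein, with an r of 0.95, the kinase STK17B with 0.94, properdin (CFP), a positive regulator of complement, with 0.94, and Sus_scrofa_newGene_14686 with 0.93.

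MANSC1, the growth factor PDGFC, the transcriptional repressor ZBTB14, the lymphocyte and myeloid adhesion regulator CYTIP and the lysosomal protease CTSS followed, with an r of 0.92 each. All 10 genes were higher in every high-iron library than in every control, which the choice by likeness favours. Only ABRACL and Sus_scrofa_newGene_14686 differed by over 2-fold, with log2 differences of 2.17 and 2.11 and SEs of 0.32 and 0.27, while the other 8 lay between 0.46 and 0.90. Sus_scrofa_newGene_14686 was 62.3, 33.3 and 43.1 FPKM in the high-iron libraries and between 9.01 and 21.8 FPKM in the others. Of these 10, 9 stood among the top 10 with a pseudocount of 1, 5 with median-of-ratios scaling and 1 by Spearman's rho.

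The other immunoglobulin rows of the table were few. The annotation has 121 variable and 16 constant segment genes of the immunoglobulin and T cell receptor loci as separate biotypes. The table covers 7 protein-coding rows described as immunoglobulin heavy chains or lambda-like polypeptides, LOC396781 included. LOC100152327 is annotated as immunoglobulin lambda-like polypeptide 5, and whether its reads come from lambda light chains was not tested. It was 6.04, 4.44 and 7.27 FPKM in the low-iron libraries, 10.2, 6.31 and 5.18 FPKM in the controls and 14.2, 6.47 and 15.4 FPKM in the high-iron libraries. High-iron replicates 2 and 8 were the highest of the 9, and high-iron replicate 7 was among the others. High-iron minus control was 0.69 on the log2 scale (adjusted p = 0.92 by limma) and high-iron minus low-iron was 0.94 (adjusted p = 0.66), each with an SE of 0.36, and neither was called.

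The ratio of LOC396781 to LOC100152327 FPKM was between 0.368 and 1.48 in the 6 low-iron and control libraries and 1.88, 2.86 and 2.36 in high-iron replicates 2, 7 and 8. Thus the heavy chain stood higher relative to this lambda-like row in each high-iron liver, which the choice of LOC396781 for high values there favours. The heavy chain variable rows LOC100038328, LOC100038329, LOC100125542 and LOC445536 and the lambda-like row LOC100523213 were at most 1.66 FPKM in any library, and each was listed at 0 in at least 1 library. Of these, LOC100038329 was called higher in the high-iron group than in the controls, at 1.33, 1.66 and 0.278 FPKM against 0, 0 and 0.828 FPKM, with a log2 difference of 2.23, an SE of 1.00 and an adjusted p of 0.89. LOC100038328 was called higher than in the low-iron group, at 0.937, 0.515 and 1.498 FPKM against 0.571, 0 and 0 FPKM, with an adjusted p of 0.67 by limma. Both calls rest on levels near 1 FPKM. Over the low-iron and control libraries the means of LOC100038328 and LOC100038329 were 0.27 and 0.35 FPKM, below the filter of 0.5 FPKM. Both rows thus passed the filter through the high-iron libraries, which favours calls in that direction.

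Of 20 genes of B cell identity, 19 had a row and 12 passed the filter, and 1 of the 12 was called in each comparison, all in the higher direction, where 0.882%, 1.57% and 1.54% of all tested genes were called for low-iron against control, high-iron against control and high-iron against low-iron. For high-iron minus low-iron 11 of the 12 were above 0, 4 did not overlap, where 8.11% of all tested genes were wholly higher, and 3 had an unadjusted p under 0.05. CD72, a B cell coreceptor, was 1.63, 0.633 and 1.37 FPKM in the high-iron libraries and 0.577, 0.186 and 0.131 FPKM in the controls, a log2 difference of 1.79 with an SE of 0.54 and an adjusted p of 0.89. It was also called higher in the low-iron group than in the controls, by 1.26 with an SE of 0.54 and an adjusted p of 0.9998. BANK1, a B cell scaffold protein and the most abundant of the list, was 4.52, 4.91 and 4.57 FPKM in the high-iron libraries and 2.81, 1.90 and 1.85 FPKM in the low-iron libraries, a log2 difference of 1.08 with an SE of 0.30 and an adjusted p of 0.60.

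The median log2 difference of the 12 genes was 0.26 for high-iron minus control, beside 0.10 for all tested genes, 0.54 for high-iron minus low-iron, beside 0.03, and -0.33 for low-iron minus control, beside 0.08. The summed level of the list was 22.5 to 29.2 FPKM in the high-iron group, 13.5 to 23.8 FPKM in the control group and 15.97 to 17.03 FPKM in the low-iron group. Every high-iron sum was thus above every low-iron sum. The sum leans on the most abundant genes, such as BANK1 and SYK, with means of 3.30 and 2.81 FPKM over the 9 libraries. The part of cells other than B cells in it was not tested. MS4A1, which encodes the B cell surface protein CD20, was 0.297, 0.964 and 1.56 FPKM in the high-iron libraries, 1.49, 0.944 and 0.713 FPKM in the controls and 0.677, 0.456 and 0.637 FPKM in the low-iron libraries. Its lowest value was in high-iron replicate 2 and its highest in high-iron replicate 8, where LOC396781 was 26.7 and 36.4 FPKM. High-iron minus control was -0.31 on the log2 scale for MS4A1 and 0.20, 0.11 and 0.11 for CD79A, CD79B and CD22, with 11 of the 12 genes above 0. SYK, the tyrosine kinase of the receptor, was 3.44, 2.97 and 4.14 FPKM in the high-iron libraries and 2.997, 2.33 and 2.93 FPKM in the controls, and was not called.

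The list of plasma cell genes did not follow the IgG heavy chain as a group, but it includes genes that hepatocytes also make. Of 19 genes, 17 had a row and 15 passed the filter, and 0 were called for high-iron against control by limma, with 0 at an unadjusted p under 0.05. The median log2 difference of the 15 was -0.01, beside 0.10 for all tested genes. For low-iron against control 0 were called as well, with 1 at an unadjusted p under 0.05. Against the low-iron group CD38, an ectoenzyme found on plasma cells and other leukocytes, was called higher, at 2.92, 2.73 and 5.38 FPKM against 1.47, 2.37 and 0.914 FPKM, a log2 difference of 1.19 with an SE of 0.37 and an adjusted p of 0.62. It was the only gene of the 15 called, where 1.01% of all tested genes were called higher. In this comparison 7 of the 15 were above 0, with a median of -0.01, beside 0.03 for all tested genes. XBP1 and HERPUD1, the most abundant of the list, act in protein folding and are also made by hepatocytes. Their means over the 9 libraries were 103 and 73.0 FPKM, in a list that summed to between 370 and 489 FPKM. Such genes can hide a change in plasma cells, so the median and sum of the list cannot show whether one took place. XBP1 was 99.0, 72.3 and 109 FPKM in the high-iron libraries and 115, 81.2 and 131 FPKM in the controls.

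The 19 genes of antibody folding and secretion, which serve every secretory cell, had 0 calls in any of the 3 comparisons by limma, and 0 genes at an unadjusted p under 0.05 in each. Their summed level was highest in low-iron replicate 3, at 2338 FPKM, a library in which JCHAIN was lowest. Of the 8 tested rows of antibody receptors and transport, 0 were called in any comparison by limma, with 1 at an unadjusted p under 0.05 in each high-iron comparison and 0 in the other. B2M, which pairs with the neonatal Fc receptor, and FCGRT, the receptor itself, were the most abundant, and FCGRT was 113, 129 and 129 FPKM in the high-iron libraries and 119, 105 and 138 FPKM in the controls. Among factors that draw or sustain B cells and plasma cells, CCL19 and TNFSF13B, which encodes BAFF, were called higher in the high-iron group than in the controls, 2 of 9 tested genes, where 1.27% of all tested genes were. CCL19 was 14.6, 17.2 and 46.6 FPKM against 11.7, 8.56 and 12.1 FPKM, and TNFSF13B was 1.89, 1.29 and 2.27 FPKM against 1.13, 0.846 and 0.447 FPKM, with adjusted p-values of 0.89 each.

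Few markers of other leukocytes were called, while the sums of several lists were higher in the high-iron livers. The summed level of 4 pan-leukocyte genes was 71.7 to 104.5 FPKM in the high-iron group, 51.0 to 58.0 FPKM in the controls and 51.6 to 53.9 FPKM in the low-iron group. All 4 had a log2 difference above 0 from the controls, with a median of 0.64. By limma 0 were called, while 2, PTPRC and LAPTM5, had an unadjusted p under 0.05. These 2 lay wholly above the controls, where 9.14% of all tested genes did. The 12 macrophage genes summed to between 1198 and 1412 FPKM in the high-iron group and between 901 and 1159 FPKM in the other livers. Of them 11 had a log2 difference above 0 against the controls, with a median of 0.52, 7 lay wholly above the controls, where 9.14% of all tested genes did, and only CLEC4F, a lectin of Kupffer cells, was called, where 1.27% of all tested genes were called higher. CD5L, a macrophage protein, was the exception, at -0.22 on the log2 scale with an SE of 0.17.

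The 11 T cell rows summed to 40.6, 37.8 and 61.5 FPKM in high-iron replicates 2, 7 and 8. They summed to at most 29.0 FPKM elsewhere, apart from control replicate 4. All 11 had a log2 difference above 0 in both high-iron comparisons. Their median was 0.60 against the controls and 0.67 against the low-iron group, beside 0.10 and 0.03 for all tested genes. Only CD8A of the 11 was called, higher in both high-iron comparisons. Of all tested genes, 1.27% were called higher than in the controls and 1.01% higher than in the low-iron group. COL1A1 and DPT, of the 6 fibroblast genes, were called higher than in the controls, where 1.27% of all tested genes were. COL1A2, DPT and COL1A1 were called higher than in the low-iron group, where 1.01% of all tested genes were. NK and cytotoxic cell, dividing cell, red blood cell, hepatocyte and bile duct cell lists had 0 calls in the 3 comparisons by limma, with 1 NK and 1 hepatocyte gene at an unadjusted p under 0.05 for high-iron against low-iron and 0 elsewhere. Of the 3 neutrophil genes tested, S100A12 was called higher in the low-iron group than in the controls, where 0.882% of all tested genes were called in either direction. The median of the 3 neutrophil genes tested was -1.08 for high-iron minus low-iron, with 1 of 3 above 0. For high-iron minus control it was 0.63, with 3 of 3 above 0. The part of these cells in the values of LOC396781 was not tested. High-iron replicate 8 had the highest LOC396781, JCHAIN and MZB1 as well as the highest T cell and leukocyte sums, while the new genes were highest in high-iron replicate 2.

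**Figure D5:**
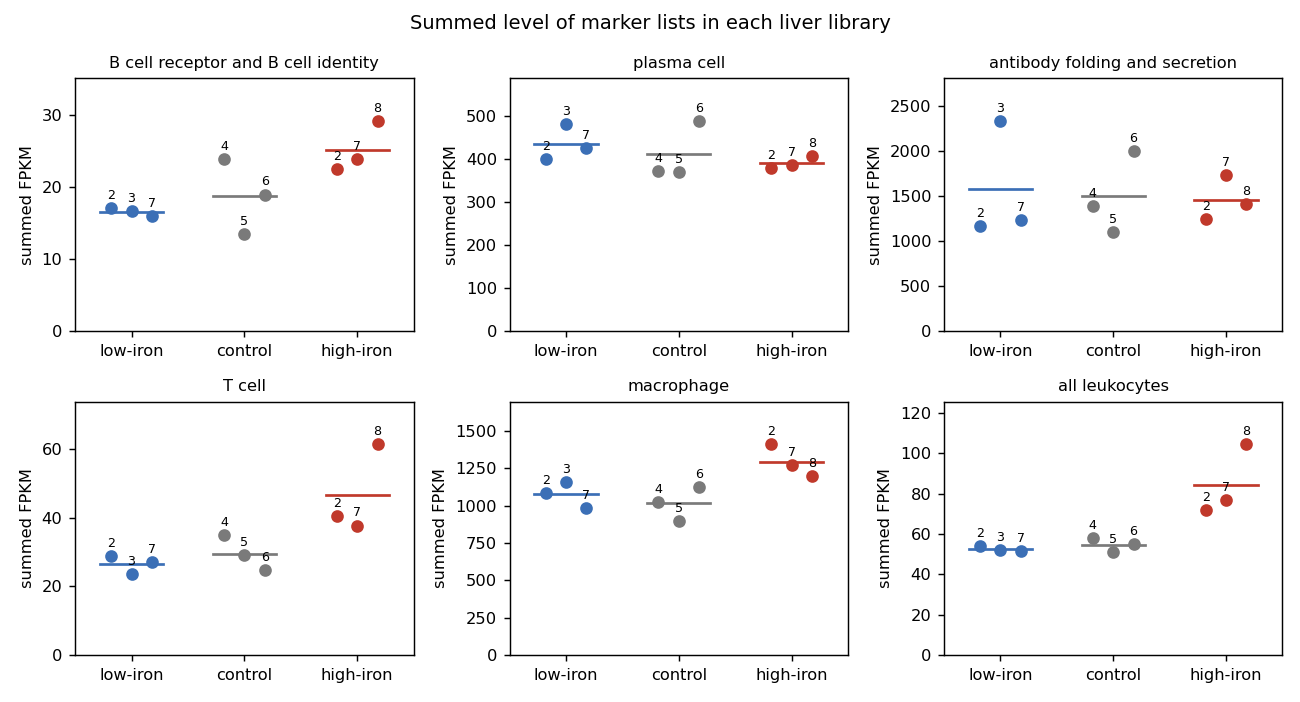
Summed FPKM of 6 marker lists in each library, by diet group; points are libraries with their animal number and lines are group means (n = 3). The plasma cell and antibody folding sums overlap between all groups, and both include genes that other secretory cells also make. The leukocyte sum is 71.7 FPKM or more in each high-iron library and at most 58.0 FPKM in the others.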

How the data were processed

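Libraries of liver RNA from 9 pigs, 3 in each of 3 diet groups, were compared. The authors trimmed the reads, mapped them to Sscrofa11.1 using HISAT2, built transcripts by StringTie and deposited an FPKM table with 1 value per gene and library. No scaling between libraries is stated. The table holds no counts and its low values showed no whole-read steps, so counts per gene are unknown and precision rests on the spread of 3 libraries. The study lists the reads of each library, and high-iron replicate 2 had the most. That library also had the fewest genes above 0, 16235. Row numbers were read as gene places in the NCBI annotation of that build. By this reading all 20660 were protein-coding, whereas 15031 were after a shift by 1 place.

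Values were analysed as log2(FPKM + 0.1) for 12584 genes with a mean of at least 0.5 FPKM, in 1 limma fit (3.58.1, R 4.3.3) of 3 groups with empirical Bayes trend, 6 residual degrees of freedom and Benjamini-Hochberg adjustment, tested on simulated data. Fold changes on this scale understate the change of low genes. Permutation tests were exact and two-sided (scipy 1.17.1). Sequences were read from RefSeq Sscrofa11.1 with pysam 0.24.0 and matched with BLASTN 2.17.0.

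The 8 genes and all lists were chosen with earlier results of these data known. Named are the 8 genes, called genes and the 2 most abundant of the B cell, plasma cell and antibody receptor lists, called genes of other lists, immunoglobulin rows, the 10 genes most like LOC396781, the 3 most like each new gene, new genes numbered within 5 and EIF1AY. MS4A1, CD79A, CD79B, CD22, CD5L, ALB, PTPRC, LAPTM5, RN18S, RN5-8S, LOC110258214 and LOC102165485 were named after their values or positions were seen. Of the list symbols, CR2, SLAMF7, TENT5C, TRAT1, ZAP70 and KRT7 had no row. Alternatives varied the pseudocount, filter, scaling, weights, samples, EIF1AY, replicate number and each library.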

Additional observations from a re-analysis of the deposited data

How the results depend on the processing

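The number of the 8 genes called for high-iron against control, 4, was 2 with EIF1AY as a covariate, 2 with only the groups compared and 1 with array quality weights. Leaving out each library gave 1 to 5, with 1 without control replicate 6 or high-iron replicate 2. For low-iron against control it gave 0 to 4 in place of 2, with 0 without control replicate 4, low-iron replicate 2 or low-iron replicate 3. The log2 difference of MZB1 between low-iron and control livers, -0.37, changed sign to 0.032 with a pseudocount of 1, to 0.30 by group medians and to 0.76 without low-iron replicate 3, within a range of -1.12 to 0.76 over libraries left out. The causes were not tested.

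Calls over all genes for low-iron against control, 111, were 171 with array quality weights, 331 with no filter, 34 with a pseudocount of 1 and 111 to 209 with a library left out. For high-iron against control, 197, they were 504 with no filter, 74 with a pseudocount of 1 and 190 to 296 with a library left out. For high-iron against low-iron, 194, they were 334 with array quality weights, 458 with no filter, 67 with a pseudocount of 1 and 186 to 333 with a library left out. Of the plasma and B cell genes, 1 was called for low-iron against control, and 0 with a mean of at least 1 FPKM, with only the groups compared and with a pseudocount of 1, or 0 to 2 with a library left out. For high-iron against control 1 was called, and 0 with a mean of at least 1 FPKM or a pseudocount of 1. For high-iron against low-iron 2 were called, 0 with a pseudocount of 1 and 0 to 2 with a library left out.

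Only the numbers 2 and 7 recur, in the low-iron and high-iron groups, and libraries with the same number did not deviate together (r = 0.02 for each), so the pairing is one of number only. With the replicate number as a block, 458 genes in place of 194 and 5 of the 8 genes in place of 6 were called, and the log2 difference was 1.59 for LOC396781 and 0.53 for JCHAIN. FPKM without counts limits what can be said of low genes such as MZB1, and 3 libraries per group cannot reach an exact p below 0.1.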
